A study of Mus musculus with 14 samples.

Results

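The genes described here mark or regulate Langerhans cells and dermal dendritic cells, the antigen-presenting cells of epidermis and dermis. The 10 genes Cd207, Epcam, Mgl2, Cd209a, Itgax, Flt3, Xcr1, Ccr7, Irf4 and Irf8 were taken by symbol from the 35327 named genes of the count table. All 10 were among the 20939 genes with enough counts to be tested. Polyadenylated RNA of neck skin was sequenced in 14 libraries of mice labelled female, on a C57BL/6J background, in 5 groups. The untreated group had 2 libraries of wild-type mice aged 6 weeks, and the labels do not settle if these are 2 mice. The other 4 groups had 3 libraries each and all received MC903 (calcipotriol, a vitamin D analogue that inflames the skin), 1 nmol in 100 µL daily for 6 days on the shaved neck. The isotype group was wild-type mice of 6 weeks injected i.p. with 20 µg of a control antibody every other day, with 3 injections before the first MC903. The MAR1 group had the same schedule with MAR1, which binds FcεRI alpha, the high-affinity IgE receptor chain, and is used to deplete basophils. The fl/fl group was Il4ra fl/fl mice of 6 to 7 weeks without injections. The cKO group was Pdgfra-CRE/Il4ra fl/fl mice of the same age, also without injections, in which Il4ra, the IL-4 receptor alpha gene, is deleted where Pdgfra drives Cre, as in fibroblasts.

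Langerhans cells live in the epidermis, are kept there by IL-34 and TGF-beta signals, and carry langerin, the product of Cd207, in their Birbeck granules. Dermal conventional dendritic cells fall into type 1 cells, which depend on IRF8 and carry XCR1, and type 2 cells, many of which depend on IRF4 and carry MGL2 or CD209A. After activation both kinds raise CCR7 and travel through lymph vessels to the draining lymph node.

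The libraries differed in more than their labels. Totals were 5.73 to 10.6 M counts with MAR1, 16.5 to 30.8 M in cKO and 34.3 to 55.3 M in the other groups. Genes of olfactory and vomeronasal receptors, best known from sensory neurons, took 3.88 to 9.38% of counts with MAR1, 0.467 to 2.58% in cKO and at most 0.439% elsewhere. Levels are given in CPM, counts scaled to equal library size with TMM factors. Summed B cell markers were at 2199 and 447 CPM in fl/fl libraries 1 and 2 and at 4.70 CPM in library 3, and the salivary gene Bpifa2 was at 733, 10949 and 0.118 CPM in the same libraries. The Y-linked gene Ddx3y was at 69.9 CPM in cKO library 1, against its label, and at 0 in cKO libraries 2 and 3. Il4ra was at 214, 145 and 176 CPM in fl/fl, 70.7, 67.8 and 14.5 CPM in cKO, 196, 179 and 193 CPM with isotype and 45.8, 23.2 and 9.01 CPM with MAR1. Markers of keratinocytes and dermal fibroblasts were present in every library, with summed levels of at least 3348 and 1195 CPM.

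Cd207, Mgl2 and Cd209a encode C-type lectins and were lower together after MC903 with isotype antibody, so the 250 bases before their start sites are shown. They come from RefSeq on GRCm38.p6, an older build than the GRCm39 named for the counts, and are read 5′ to 3′ along the gene. The Cd207 bases are chr6:83677858-83678107 on the minus strand. Those of Mgl2 are chr11:70130107-70130356 on the plus strand. Those of Cd209a are chr8:3748985-3749234 on the minus strand. Capitals mark matches, on either strand, to the core GGAAGT of ETS factors such as PU.1 or to the AP-1 motif TGACTCA.
Cd207: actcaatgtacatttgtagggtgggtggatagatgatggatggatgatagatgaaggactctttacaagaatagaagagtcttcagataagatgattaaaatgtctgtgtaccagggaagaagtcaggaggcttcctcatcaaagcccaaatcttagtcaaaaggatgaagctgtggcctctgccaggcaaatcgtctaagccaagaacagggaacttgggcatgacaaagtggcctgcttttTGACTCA
Mgl2: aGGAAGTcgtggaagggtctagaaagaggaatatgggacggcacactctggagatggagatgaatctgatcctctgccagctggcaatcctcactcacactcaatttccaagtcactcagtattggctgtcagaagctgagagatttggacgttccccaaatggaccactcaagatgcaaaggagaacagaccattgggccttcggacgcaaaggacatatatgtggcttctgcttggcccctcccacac
Cd209a: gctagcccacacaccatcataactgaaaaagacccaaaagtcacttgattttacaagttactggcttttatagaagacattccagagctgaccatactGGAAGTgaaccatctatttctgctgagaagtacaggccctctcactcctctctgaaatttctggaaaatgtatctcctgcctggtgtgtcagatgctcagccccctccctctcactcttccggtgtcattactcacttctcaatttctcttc
Of the 10 genes 9 had an entry. The motif letters were picked after these bases had been seen. GGAAGT was found before Mgl2, Cd209a, Itgax, Flt3 and Xcr1, and in 19.7% of all 32851 promoters of the same length. TGACTCA was found before Cd207, where it starts 7 bases from the start site, and before Itgax, and in 4.46% of all promoters. The STAT motif TTCNNNGAA was found before Irf8 alone of the 9 genes (7.02% of all promoters) and the RUNX motif TGTGGT before none of them (14%).

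**Figure D1:**
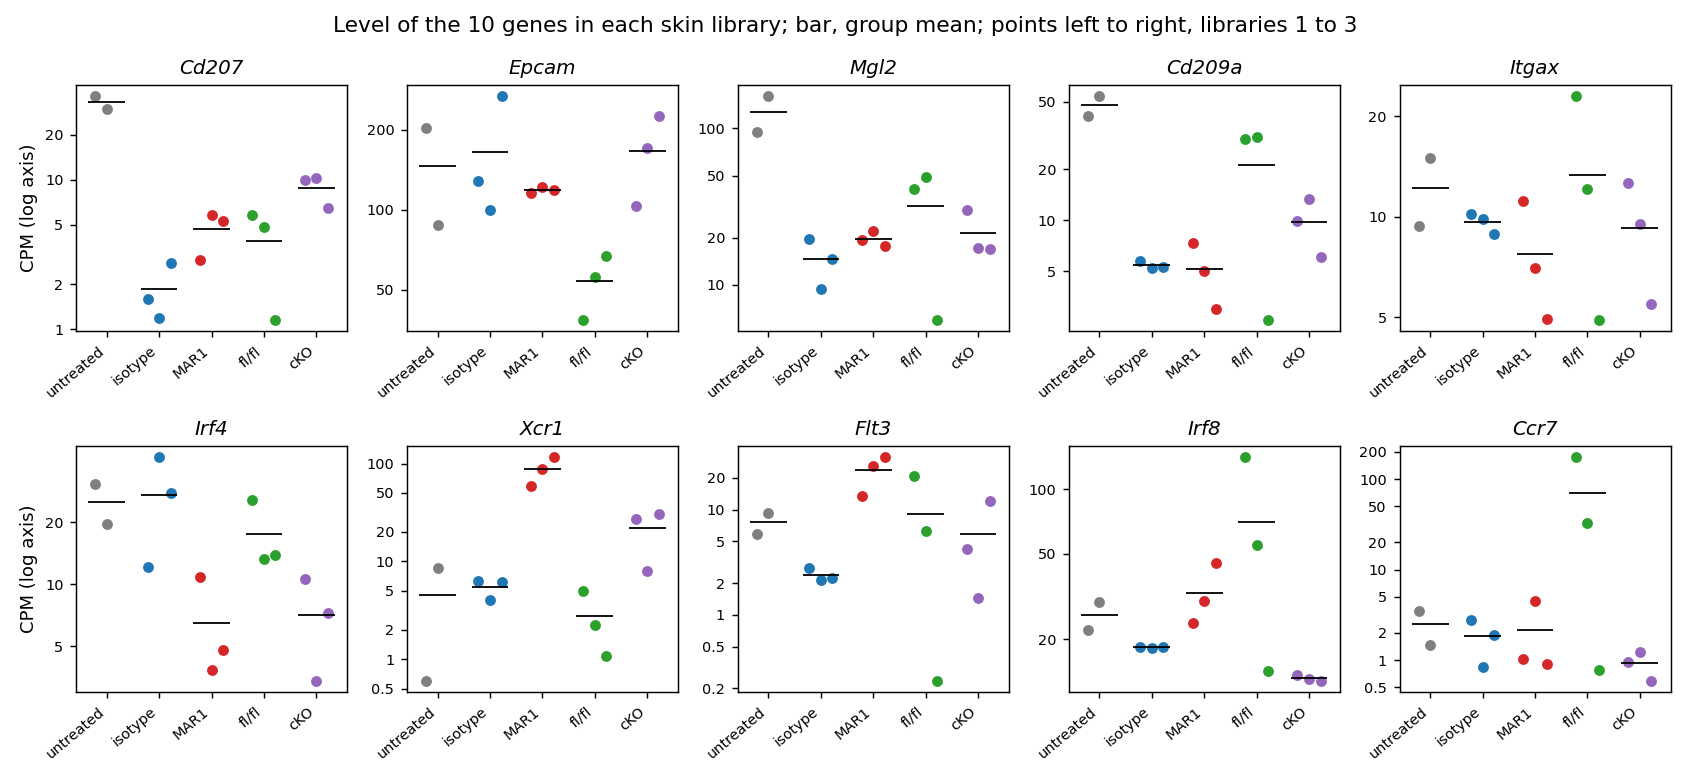
Level of each of the 10 genes in CPM on a log axis, 1 point per library and a bar at the group mean (2 untreated libraries, 3 in each other group). Cd207 is at 29.6 and 36.1 CPM in untreated skin and at most 10.3 CPM in every MC903 library.

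Isotype libraries were first set against untreated skin, to see the response to MC903. Cd207, Mgl2 and Cd209a fell, 3 of the 10 genes, and none rose. Of all genes tested 1.72% were called lower and 1.35% higher at an adjusted p below 0.05. The median log2 fold change of the 10 genes was -0.48, beside 0.11 over all genes. In bulk RNA, fewer cells of a type and less RNA per cell cannot be told apart. The isotype mice had also been injected, and MC903 and the injections cannot be told apart here.

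Cd207, which encodes the Birbeck granule receptor, was at 36.1 and 29.6 CPM in untreated libraries 1 and 2, and at 1.60, 1.18 and 2.78 CPM in isotype libraries 1 to 3. Both untreated libraries lay above all isotype libraries. The log2 fold change was -4.15 ± 0.64 (SE, 95% interval -5.52 to -2.77, adjusted p = 0.00569, edgeR). The call was kept when any 1 of the 14 libraries was left out, with values from -4.56 to -3.78.

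Mgl2 encodes a galactose-binding lectin of dermal type 2 dendritic cells and macrophages. It was at 95.4 and 161 CPM in untreated skin and at 19.6, 9.42 and 14.7 CPM in isotype libraries 1 to 3, with no overlap (log2 -3.14 ± 0.63, adjusted p = 0.0203). Its transcripts share 19.3% of their 31-base words with the related lectin gene Clec10a, so its level is uncertain where counting split such reads. The call was lost without any 1 untreated or isotype library (log2 -3.47 to -2.23, adjusted p up to 0.0972). Those fits called 0.240 to 2.38% of all genes higher and 0.154 to 0.476% lower. Cd209a, a relative of human DC-SIGN, was at 41.4 and 53.9 CPM in untreated skin and at 5.74, 5.19 and 5.32 CPM with isotype. These did not overlap either (log2 -3.14 ± 0.72, adjusted p = 0.0329). The Cd209a call was lost without any 1 untreated or isotype library, without MAR1 library 2 or without cKO library 2 (log2 -3.32 to -2.46, adjusted p up to 0.135).

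The other 7 genes did not pass. Flt3, the receptor for a growth factor of dendritic cell precursors, was at 5.83 and 9.28 CPM in untreated skin and 2.80, 2.13 and 2.22 CPM with isotype, without overlap (log2 -1.66, 95% interval -4.04 to 0.71). Irf8, a transcription factor of type 1 cells, was at 22.1 and 29.9 CPM against 18.4, 18.2 and 18.4 CPM, also without overlap (log2 -0.50, -1.80 to 0.79). The groups overlapped for the remaining 5 genes, and 48.8% of all genes tested did not overlap. The log2 fold change of Itgax, the CD11c integrin chain, was -0.34 (-1.58 to 0.90). Epcam, an adhesion molecule of Langerhans cells that hair follicle and gland epithelium also carry, was at 204 and 87.6 CPM and 129, 100.0 and 268 CPM (log2 0.18, -0.82 to 1.19). Irf4, a transcription factor of type 2 cells, was at 30.8 and 19.7 CPM and 12.1, 41.6 and 27.8 CPM (log2 0.11, -1.18 to 1.39). For Xcr1, a chemokine receptor of type 1 cells, untreated library 1 was at 0.603 CPM and library 2 at 8.47 CPM, on either side of the isotype libraries (log2 0.28, -1.57 to 2.14). Ccr7 stayed below 4 CPM in both groups (log2 -0.45, -3.19 to 2.28).

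Other genes of these cells were counted in lists by function. Of 12 genes listed for type 2 dendritic cells 2 fell and none rose, the Cd209a relatives Cd209g (log2 -3.73 ± 0.70) and Cd209f (-3.36 ± 0.71). Which cells these transcripts came from was not tested. Of 9 type 1 genes 1 fell, Naaa, a lysosomal amidase, from 133 and 147 CPM to 25.5, 28.9 and 25.8 CPM (log2 -2.38 ± 0.47, adjusted p = 0.0173). Of 8 MHC class II genes 4 fell, H2-DMb1, H2-Ab1, H2-DMa and Cd74, with log2 fold changes of -2.97, -3.13, -3.44 and -3.30. None of the genes in the lists for the Langerhans cell network (12), mature dendritic cells (14), plasmacytoid dendritic cells (6) or dendritic cell development (11) was called by edgeR, with 3, 1, 0 and 6 at an unadjusted p under 0.05, as were 3759 of all genes tested. Among 10 ligands Il34, which sustains Langerhans cells, fell from 87.6 and 56.6 CPM to 12, 13.4 and 13.4 CPM (log2 -2.48 ± 0.42, adjusted p = 0.0099). Tslp, a keratinocyte cytokine that acts on dendritic cells, rose (log2 7.21 ± 1.08, adjusted p = 0.00539). Summed markers of all leukocytes were at 471 and 501 CPM in untreated skin and 193 to 252 CPM with isotype. Hair follicle markers summed to 110.3 and 88.6 CPM in untreated skin and 2011 to 2313 CPM with isotype. With isotype most of that sum was Tchh, at 2111, 1971 and 1915 CPM, against 11.7 and 6.53 CPM in untreated skin. Of the 8 hair follicle genes 1 was called higher and 1 lower. Lhx2 was at 48.8 and 30.4 CPM in untreated skin and 7.59, 8.24 and 16.7 CPM with isotype. Dermal fibroblast markers summed to 12295 and 19248 CPM in untreated skin and 3614 to 4326 CPM with isotype. Their part in the lower Cd207, Mgl2 and Cd209a was not tested.

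The fl/fl libraries were set against the same 2 untreated libraries, so both comparisons share their controls. Untreated mice were wild-type of 6 weeks and fl/fl mice were 6 to 7 weeks old, so MC903, genotype and age cannot be told apart. Of the 10 genes Cd207 alone passed, and fell, where 0.95% of all genes were called lower and 0.769% higher, and 28.0% did not overlap. Cd207 was at 5.79, 4.80 and 1.15 CPM in fl/fl libraries 1 to 3, all below untreated skin (log2 -3.07 ± 0.62, adjusted p = 0.0247). The log2 fold change was -4.88 without fl/fl libraries 1 and 2, and without untreated library 2 the call was lost (-3.24, adjusted p = 0.0836).

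Both dermal lectins were uneven in fl/fl. Mgl2 was at 41.1, 48.9 and 5.94 CPM in fl/fl libraries 1 to 3, all below untreated skin (log2 -2.0 ± 0.61, adjusted p = 0.107). Cd209a was at 30.2, 30.9 and 2.57 CPM, also below untreated skin (log2 -1.17 ± 0.70, adjusted p = 0.397). For both genes library 3 lay below, and libraries 1 and 2 above, every isotype library. Both passed without fl/fl libraries 1 and 2, Mgl2 at -4.52 (adjusted p = 0.00294) and Cd209a at -4.28 (adjusted p = 0.00757), each resting on 1 fl/fl library that is assumed to vary like the other groups. Flt3 also passed in that fit (-5.05, adjusted p = 0.0432), against 0.27 with all libraries. Ccr7 was at 176 CPM in fl/fl library 1, 33.0 CPM in library 2 and 0.768 CPM in library 3, the last below both untreated libraries with 3.51 and 1.47 CPM (log2 4.81 ± 1.57, adjusted p = 0.132). Epcam, at 38.5, 56.2 and 66.8 CPM, lay below untreated skin without passing (log2 -1.44 ± 0.46, adjusted p = 0.122). The log2 values of Irf8 (1.44), Irf4 (-0.52), Xcr1 (-0.70), Itgax (0.13) and Flt3 did not pass. Of the lists, Il34 fell again (log2 -2.03 ± 0.42, adjusted p = 0.0284), Tslp rose (log2 8.22 ± 1.13, adjusted p = 0.00452), and of 14 mature dendritic cell genes Fscn1, an actin-bundling protein, rose (log2 2.77 ± 0.59, adjusted p = 0.0307). In the Langerhans cell network Ahr fell, 1 of 12 genes (log2 -1.47 ± 0.31, adjusted p = 0.0318), and of 11 developmental genes Bcl6 fell (log2 -1.39 ± 0.31, adjusted p = 0.0381).

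**Figure D2:**
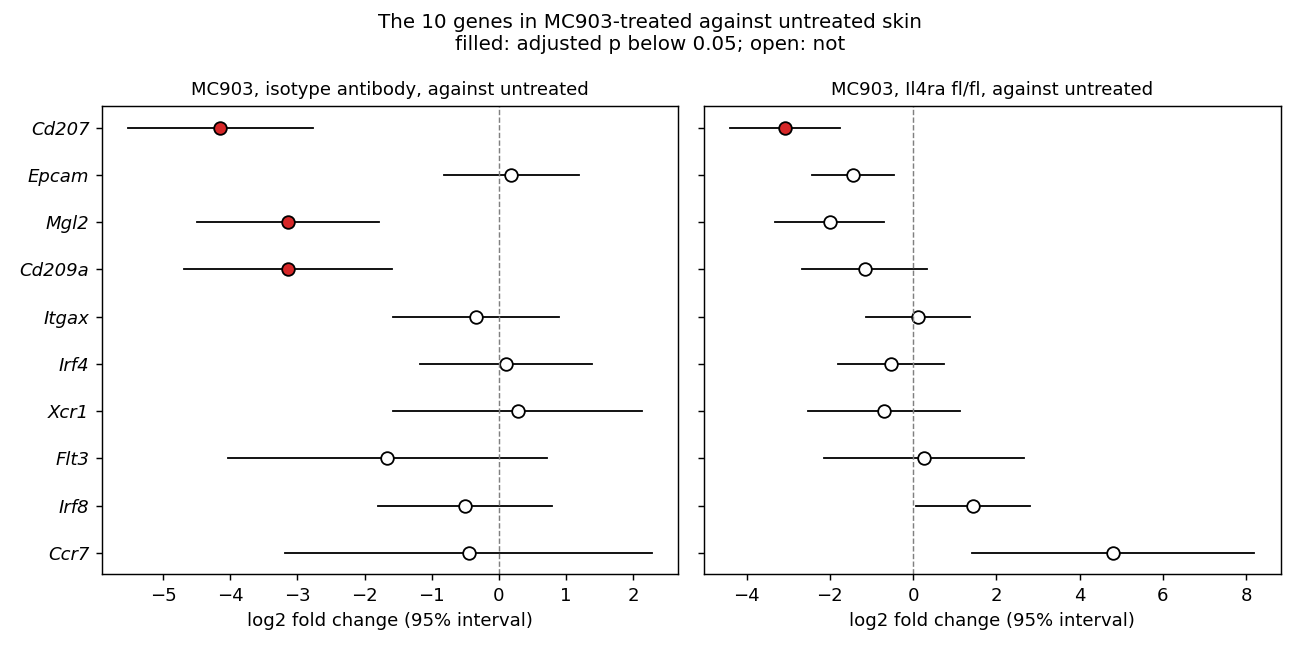
Log2 fold change and 95% interval of the 10 genes with MC903 and isotype antibody (left) and with MC903 in Il4ra fl/fl mice (right), both against the same 2 untreated libraries, filled where the adjusted p was below 0.05. Cd207 is filled in both panels, at -4.15 and -3.07, and Mgl2 and Cd209a in the left panel.

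MAR1 was set against its isotype control, both with MC903. Xcr1 and Flt3 rose, Irf4 fell and the other 7 genes did not pass. In this comparison 22.6% of all genes tested were called higher and 26.5% lower, so a count of 3 in 10 is no more than the background. With RLE scaling the shares were 30.3% and 17.4%, and the median of all genes moved by 0.59 on the log2 scale. The groups did not overlap for 68.6% of all genes.

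Other cell markers also differed between these groups. Summed keratinocyte markers were at 3348 to 6717 CPM with MAR1 and 19754 to 37032 CPM with isotype, and 7 of 8 fell. Dermal fibroblast markers were at 1195 to 1745 CPM and 3614 to 4326 CPM, and 5 of 8 fell and 1 rose. Macrophage and monocyte markers summed to 1929.7, 896 and 498 CPM with MAR1 and 2104, 1695 and 2046 CPM with isotype. These sums overlapped, and 5 of 10 genes fell and 0 rose. Of the 10, Lyz2 did not overlap, at 132, 80.9 and 39.1 CPM with MAR1 and 752, 630 and 721 CPM with isotype. Mitochondrial genes took 0.129 to 0.344% of counts with MAR1 and 2.12 to 2.33% with isotype. The part of these differences in the values of the 10 genes was not tested.

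Xcr1, whose ligand XCL1 is made by lymphocytes, was at 59.4, 87.7 and 117 CPM in MAR1 libraries 1 to 3. With isotype it was at 6.36, 4.03 and 6.11 CPM. The groups did not overlap, the log2 fold change was 4.0 ± 0.85 (adjusted p = 0.00245), and the call was kept without any 1 library. Flt3 was at 13.5, 25.8 and 31.7 CPM against 2.80, 2.13 and 2.22 CPM, with no overlap (log2 3.31 ± 1.09, adjusted p = 0.0236). The Flt3 call was lost without any 1 isotype library or without MAR1 library 3 (log2 3.05 to 3.44, adjusted p up to 0.0764). Receptor genes took 3.88, 7.55 and 9.38% of counts in MAR1 libraries 1 to 3 and 0.439, 0.269 and 0.400% with isotype. With that share as a covariate the log2 fold change was -0.78 for Xcr1 (adjusted p = 0.854) and -0.52 for Flt3 (adjusted p = 0.98). The share does not overlap between these groups, so share and antibody cannot be told apart. With MAR1 that edgeR fit called 0 of all genes higher and 0 lower, with 1537 at an unadjusted p under 0.05.

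Among 9 type 1 dendritic cell genes Naaa, Cadm1 and Tlr3 rose, with log2 fold changes of 2.43, 1.25 and 1.82. Clec9a, a defining receptor of type 1 cells, was at 0.773, 1.21 and 1.35 CPM with MAR1 and 1.08, 1.30 and 0.555 CPM with isotype, and these overlapped. Summed B cell markers were at 87.1, 149 and 203 CPM with MAR1 and 9.91 to 14.1 CPM with isotype, and 2 of 8 rose and 0 fell. Of 6 plasmacytoid dendritic cell genes Ccr9, Pacsin1 and Runx2 rose. The part of the receptor gene reads in these values was not tested.

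Irf4 was at 10.8, 3.83 and 4.81 CPM with MAR1 and at 12.1, 41.6 and 27.8 CPM with isotype. The groups did not overlap, but MAR1 library 1 and isotype library 1 lay close together. The log2 fold change was -2.06 ± 0.56 (adjusted p = 0.00912), and without isotype library 2 the call was lost (-1.62, adjusted p = 0.0502). Of 11 developmental genes 2 rose and 4 fell, among them Spi1, which encodes PU.1 (log2 -1.98 ± 0.33), and Nfil3 (-2.06 ± 0.30). Of 12 Langerhans cell network genes 3 rose and 4 fell, with Csf1r, the IL-34 receptor, at -1.93 ± 0.32, the TGF-beta receptor Tgfbr2 at -1.65 ± 0.37 and Runx3 at 1.36 ± 0.38.

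Cd207 was at 2.92, 5.84 and 5.26 CPM with MAR1, all above the isotype libraries, and did not pass (log2 1.33 ± 0.56, adjusted p = 0.0634). With RLE scaling it did (1.94, adjusted p = 0.017). Irf8 was at 23.7, 30.1 and 45.2 CPM, also without overlap, and did not pass (log2 0.85 ± 0.55, adjusted p = 0.207). Mgl2 was at 19.3, 22.1 and 17.7 CPM (log2 0.44, 95% interval -0.76 to 1.64). Cd209a was at 7.31, 5.03 and 3.01 CPM (log2 -0.07, -1.47 to 1.32). Both overlapped the isotype libraries. Itgax was at 11.2, 7.05 and 4.96 CPM against 10.2, 9.86 and 8.91 CPM (log2 -0.32, -1.45 to 0.81). Epcam was at 116, 121 and 119 CPM, inside the isotype range (log2 -0.48, -1.38 to 0.42). The direction of Cd209a, Itgax and Epcam turned with RLE scaling, to 0.47, 0.22 and 0.11. Ccr7 was at 1.03, 4.53 and 0.902 CPM against 2.77, 0.836 and 1.87 CPM (log2 0.26, -2.33 to 2.84).

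**Figure D3:**
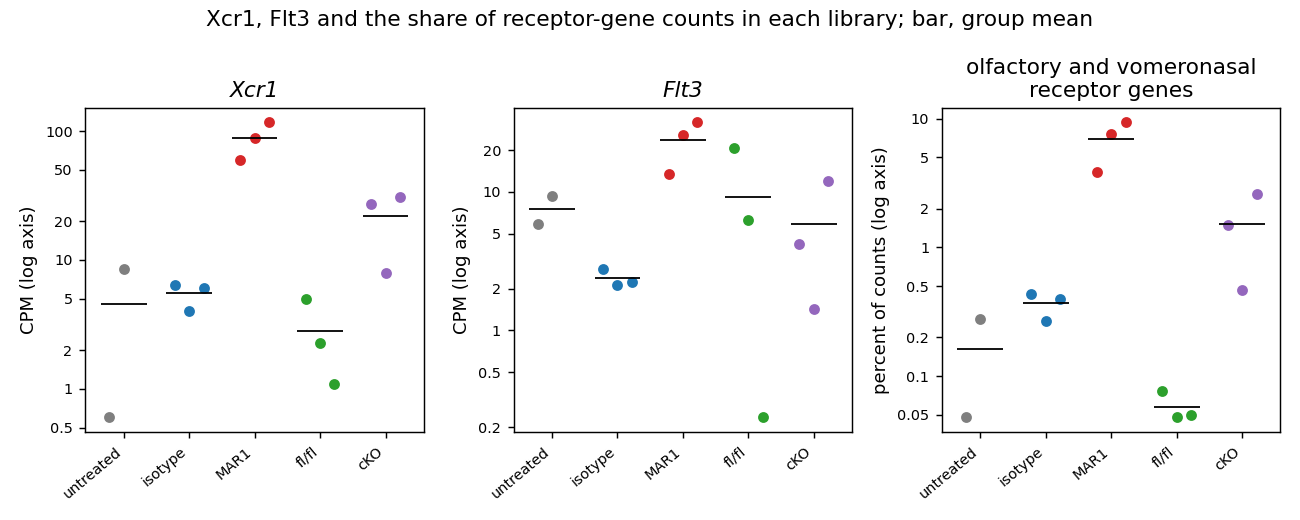
Xcr1 and Flt3 in CPM and the share of counts of olfactory and vomeronasal receptor genes in percent, all on log axes, 1 point per library and a bar at the group mean. Xcr1 and the receptor gene share are highest in the 3 MAR1 libraries (59.4 to 117 CPM and 3.88 to 9.38%).

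**Figure D4:**
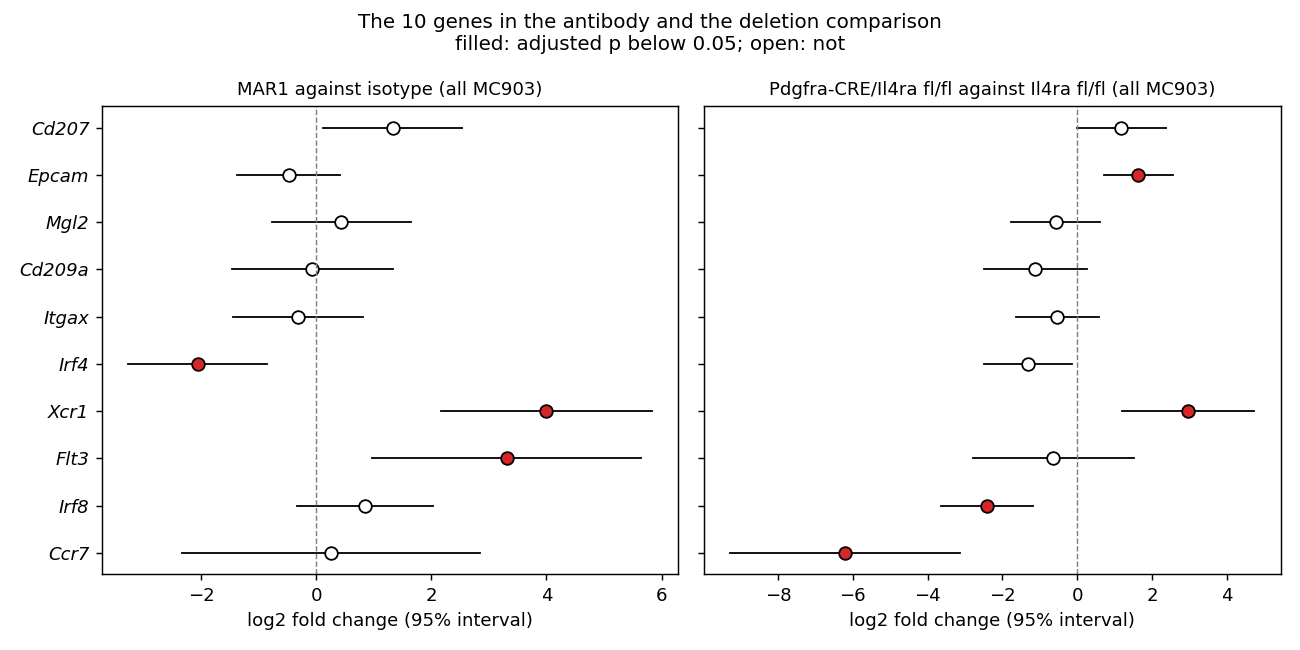
Log2 fold change and 95% interval of the 10 genes with MAR1 against isotype (left) and in cKO against fl/fl (right), filled where the adjusted p was below 0.05. Xcr1 is filled in both panels, at 4.0 and 2.97, while Ccr7 is at 0.26 on the left and -6.21 on the right.

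The deletion of Il4ra was examined by setting cKO against fl/fl skin. Epcam and Xcr1 rose, Ccr7 and Irf8 fell, and the other 6 genes did not pass. Of all genes tested 12.7% were called higher and 5.97% lower. With the receptor gene share as a covariate none of the 4 passed, with adjusted p from 0.387 to 0.542. That fit called 2 of all 20939 genes higher and 12 lower. The share was 0.467 to 2.58% in cKO and 0.0479 to 0.0769% in fl/fl, without overlap, so share and deletion cannot be told apart. The groups did not overlap for 29.4% of all genes.

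Ccr7, which guides mature dendritic cells and naive lymphocytes to lymph nodes, was at 0.957, 1.24 and 0.589 CPM in cKO libraries 1 to 3. In fl/fl it was at 176, 33.0 and 0.768 CPM. Libraries 1 and 2 of fl/fl were high, and library 3 lay inside the cKO range. The log2 fold change was -6.21 ± 1.42 (adjusted p = 0.0104). Without fl/fl libraries 1 and 2 it was 0.56, adjusted p = 0.823, and the call was also lost without cKO library 3 (-5.99, adjusted p = 0.0528). Irf8, which B cells express as well, was at 13.6, 13.1 and 12.8 CPM in cKO and at 142, 55.2 and 14.2 CPM in fl/fl. The groups did not overlap, though fl/fl library 3 lay just above cKO (log2 -2.42 ± 0.57, adjusted p = 0.0115). Without fl/fl libraries 1 and 2 the log2 fold change was 0.19, adjusted p = 0.82, and without library 1 alone -1.01, adjusted p = 0.139. Leaving out cKO library 2 (-1.93, adjusted p = 0.0622) or cKO library 3 (-2.40, adjusted p = 0.0513) also ended the call.

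Lymphocyte markers moved with both genes. Summed B cell markers (8 genes) were at 2199, 447 and 4.70 CPM in fl/fl libraries 1 to 3, and at 32.7, 18.4 and 56.9 CPM in cKO. Summed T cell markers (10 genes) were at 1219, 214 and 15.7 CPM in fl/fl and 78.2, 49.9 and 101 CPM in cKO. Of these lists 5 B cell and 6 T cell genes were called lower in cKO and none higher. The defining B cell gene Pax5 was at 114, 20.7 and 0 CPM in fl/fl and 3.37, 1.11 and 4.06 CPM in cKO. Summed markers of all leukocytes were at 2370.3, 823 and 192 CPM in fl/fl and 201 to 283 CPM in cKO. The fl/fl libraries with high Ccr7 and Irf8 were those with high lymphocyte markers and Bpifa2. Which cells the Ccr7 and Irf8 transcripts came from was not tested.

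**Figure D5:**
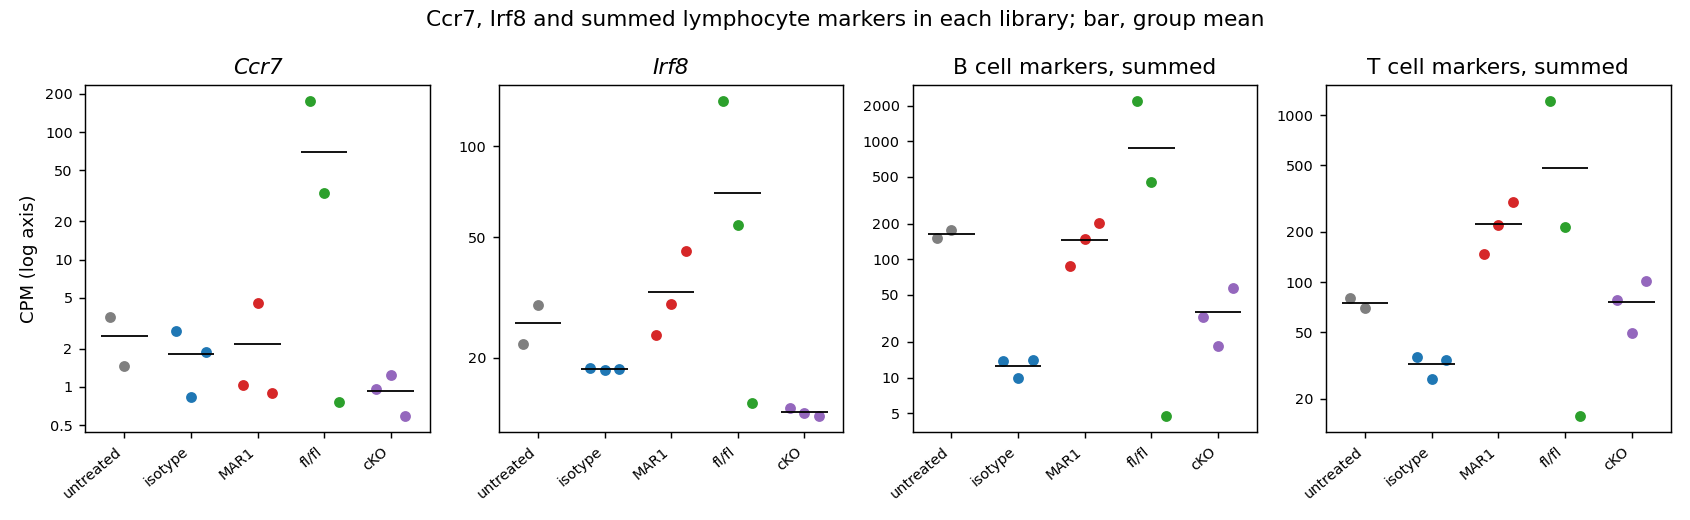
Ccr7, Irf8 and the summed B cell (8 genes) and T cell (10 genes) markers in CPM on log axes, 1 point per library and a bar at the group mean. In fl/fl, libraries 1 and 2 are high in all 4 panels (Ccr7 at 176 and 33.0 CPM) and library 3 is low (Ccr7 at 0.768 CPM).

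Of 14 mature dendritic cell genes 6 fell in cKO, Fscn1, Cacnb3, Ccl22, Cd83, Il4i1 and Relb, and Il12b rose. Fscn1 was at 398, 174 and 304 CPM in fl/fl and 64.1, 51.9 and 15.3 CPM in cKO (log2 -2.74 ± 0.50, adjusted p = 0.00369). Unlike Ccr7, it was high in all 3 fl/fl libraries. In fl/fl library 3 Ccr7, Ccl22 and Cd83 were at 0.768, 5.14 and 0.827 CPM. Which cells the Fscn1 transcripts came from was not tested. Ccl22, a chemokine of mature dendritic cells, was at 262, 59.6 and 5.14 CPM in fl/fl and 10.5, 5.49 and 5.83 CPM in cKO (log2 -3.90 ± 0.97, adjusted p = 0.0158), and without fl/fl libraries 1 and 2 its log2 fold change was 0.79. Cd83, a maturation marker, was at 178, 38.9 and 0.827 CPM in fl/fl and 3.01, 2.94 and 4.42 CPM in cKO, and its log2 fold change of -4.40 turned to 2.36 in the same fit. Of 12 genes listed for type 2 cells Sirpa and the Cd209a relatives Cd209b, Cd209f and Cd209g fell, and of 8 MHC class II genes H2-DMa. Which cells the transcripts of these relatives came from was not tested. Leaving out fl/fl libraries 1 and 2 turned Cd209g from -1.94 to 1.46 and H2-DMa from -2.47 to 1.15. Of 12 Langerhans cell network genes Ahr, a receptor for aromatic ligands, rose (log2 1.35 ± 0.29, adjusted p = 0.00705), and Tgfbr2 and Csf1r fell. Of 10 ligands Tgfb1, Csf1 and Tslp fell (Tslp log2 -2.56 ± 0.72, adjusted p = 0.026).

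Epcam was at 104, 171 and 225 CPM in cKO and at 38.5, 56.2 and 66.8 CPM in fl/fl, with no overlap (log2 1.63 ± 0.43, adjusted p = 0.0185). The call was lost without fl/fl library 2 (1.66, adjusted p = 0.0521), cKO library 3 (1.35, adjusted p = 0.0782) or both fl/fl libraries 1 and 2 (1.62, adjusted p = 0.153). Summed markers of the hair follicle, an epithelium that carries Epcam, were at 1398, 1121 and 2829 CPM in fl/fl and 557, 1150.2 and 1183 CPM in cKO. Most of each sum was Tchh, at 1370, 1069 and 2800 CPM and 477, 1074 and 889 CPM. Of these 8 genes 2 were called higher in cKO and 0 lower, with a median log2 fold change of 3.07. Summed gland markers were at 1428, 20412 and 380 CPM in fl/fl and 192, 379 and 426 CPM in cKO, with 3 of 11 called lower and 0 higher. The part of both epithelia in the Epcam value was not tested. Xcr1 was at 27.0, 7.98 and 30.6 CPM in cKO and at 5.02, 2.25 and 1.09 CPM in fl/fl, with no overlap (log2 2.97 ± 0.82, adjusted p = 0.0248). Within cKO it was lowest in library 2, as was the receptor gene share (1.49, 0.467 and 2.58% in libraries 1 to 3). With that share as a covariate the Xcr1 value was -2.13, adjusted p = 0.478, but share and deletion cannot be told apart. The Xcr1 call was also lost without fl/fl library 2 or 3 or cKO library 1 or 3 (log2 2.65 to 2.98, adjusted p up to 0.0833).

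Cd207 was at 9.89, 10.3 and 6.42 CPM in cKO, above all 3 fl/fl libraries, and did not pass (log2 1.18 ± 0.55, adjusted p = 0.143). Without fl/fl libraries 1 and 2, which left 1 fl/fl library, the Cd207 log2 fold change was 3.23. Irf4 was at 10.6, 3.40 and 7.30 CPM, below all 3 fl/fl libraries with 25.7, 13.3 and 13.9 CPM, and did not pass (log2 -1.31 ± 0.55, adjusted p = 0.107). Mgl2 was at 30.1, 17.2 and 17.0 CPM in cKO, between fl/fl library 3 and fl/fl libraries 1 and 2 (log2 -0.58, 95% interval -1.77 to 0.62). Cd209a, at 9.89, 13.3 and 6.07 CPM, lay in the same position (log2 -1.12, -2.50 to 0.26). Itgax was at 12.7, 9.55 and 5.48 CPM against 23.0, 12.1 and 4.91 CPM in fl/fl (log2 -0.53, -1.65 to 0.59), and shares 10.7% of its 31-base words with Itgad, another integrin gene. Flt3 was at 4.22, 1.44 and 12 CPM against 20.9, 6.23 and 0.236 CPM (log2 -0.64, -2.79 to 1.52). Both ranges overlapped. When fl/fl libraries 1 and 2 were left out, the log2 values of Mgl2, Cd209a, Itgax and Flt3 turned to 2.14, 2.21, 1.2 and 4.92, with adjusted p from 0.0524 to 0.297.

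The MC903 controls of both experiments were also compared. Of the 10 genes Ccr7 was higher and Epcam lower in fl/fl than with isotype, where 1.25% of all genes were called higher and 3.97% lower. Ccr7 had a log2 fold change of 5.26 ± 1.34 (adjusted p = 0.043), with fl/fl library 3 below all isotype libraries, and -1.55 without fl/fl libraries 1 and 2. Epcam was lower in all 3 fl/fl libraries than in any isotype library (log2 -1.62 ± 0.43, adjusted p = 0.0447). Each call was kept in 6 of the 14 fits with 1 library left out. Losses came without any isotype library, MAR1 library 1 or 3, fl/fl library 1 or 2, or cKO library 1. Those fits called at most 0.747% of all genes higher and 2.10% lower, and without fl/fl library 2 the shares were 0 and 0%. Over all 14 fits Ccr7 was at 2.79 to 5.69 and Epcam at -2.22 to -1.09. Cd209a (log2 1.97 ± 0.66, adjusted p = 0.0904) and Irf8 (1.94 ± 0.56, adjusted p = 0.06) did not pass, nor did Flt3 (1.93), Mgl2 (1.13), Cd207 (1.08), Itgax (0.46), Irf4 (-0.63) and Xcr1 (-0.98). Injections, genotype and age cannot be told apart here. The tissue content differed as well. Summed skeletal muscle markers were at 59361, 15350 and 9892 CPM in fl/fl libraries 1 to 3 and 1131 to 1581 CPM with isotype. Of these 8 genes 3 were called higher in fl/fl and 0 lower. The part of other tissue in the Ccr7 and Epcam values was not tested.

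A difference between both interventions was tested as the cKO effect minus the MAR1 effect. Of all genes 6.14% were higher and 1.82% lower in this interaction, or 2.09% and 2.23% with RLE scaling. Of the 10 genes Epcam was higher (log2 2.11 ± 0.60, adjusted p = 0.0465), and Ccr7 (log2 -6.47 ± 1.78, adjusted p = 0.0459) and Irf8 (log2 -3.26 ± 0.79, adjusted p = 0.0321) lower. With RLE scaling Epcam did not pass (1.66, adjusted p = 0.113). Without fl/fl libraries 1 and 2, which left 1 fl/fl library, Ccr7 was at 0.34, Irf8 at -0.65 and Epcam at 2.13. With 1 library left out the calls of Ccr7, Irf8 and Epcam were kept in 3, 5 and 6 of 14 fits, with log2 values of -6.90 to -4.0, -3.46 to -1.86 and 1.58 to 2.72. Without any 1 isotype library or MAR1 library 3, at most 0.00982% of all genes were called higher and 0% lower. For Xcr1, higher in both experiments, the difference was -1.03 (95% interval -3.36 to 1.30). For Flt3 it was -3.94 ± 1.46 (adjusted p = 0.0988), and for Irf4 0.75 (-0.89 to 2.40). Cd207, Itgax, Mgl2 and Cd209a, at -0.15, -0.21, -1.01 and -1.05, did not pass.

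The order of group means differed between the genes. Cd207 was ordered untreated, cKO, MAR1, fl/fl and isotype, with means of 32.9, 8.86, 4.67, 3.91 and 1.85 CPM, and neighbours overlapped from MAR1 downwards. Mgl2 and Cd209a also had their highest mean in untreated skin, 128 ± 46.4 and 47.7 ± 8.85 CPM (SD, n = 2), and the MC903 groups of Mgl2 overlapped with their neighbours. Xcr1 and Flt3 had their highest mean with MAR1, 88.0 ± 28.8 and 23.7 ± 9.29 CPM (SD, n = 3). Ccr7 and Irf8 were highest in fl/fl, 70.0 ± 93.5 and 70.4 ± 65.2 CPM (SD, n = 3). Irf4 had its highest mean with isotype (27.2 ± 14.8 CPM) and Epcam its lowest in fl/fl (53.8 ± 14.3 CPM). Itgax overlapped between all neighbouring groups.

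Pearson's r of log2 CPM over the 14 libraries is given as a description, since the libraries share groups, depth and other tissue. Mgl2 and Cd209a had r = 0.90, Cd207 and Mgl2 0.84, and Ccr7 and Irf8 0.85. Epcam ran opposite to Irf8 (-0.67) and Ccr7 (-0.61), and Xcr1 opposite to Irf4 (-0.65). Among 15473 genes those most like Cd207 were Il34, Art4, Mup18, Alox12e and Lgi3, the first with r = 0.92. For Mgl2 they were Rasgrp4, Tmem106a, Fcrl2, Plin1 and Akr1c14, the first with 0.96. For Ccr7 they were Dusp2, Il27ra, Il4i1 and Kif21b (first 0.94), and for Epcam Atp6v1c2, Atp12a, Lgr4, Irx2 and Cxadr (first 0.94). Plin1, a lipid droplet protein of fat cells, had a mean of 334 CPM in untreated skin and 13 CPM with isotype.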

How the data were processed

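The deposited values are estimated counts (expected counts with decimals) for gene symbols in 14 libraries, and the authors left them unnormalized as far as the values show. Salmon 1.2.1, DESeq2 1.44.0 and GRCm39 are listed, per the submitters' processing notes, but which step made the table is not given in the sources used here. Of 35328 entries 1 names no gene and was left out (0.0137% to 0.913% of a library's counts). Counts were rounded, scaled with TMM, filtered with filterByExpr and fitted in edgeR 4.0.16 (R 4.3.3) as 5 group means over every library. Two-sided quasi-likelihood tests (robust) were Benjamini-Hochberg adjusted over 20939 genes within each of 6 comparisons. The SE is the size of the log2 fold change divided by the square root of F. Nothing shows each library to be a separate culture or animal beyond the labels, so p-values reflect spread among libraries that may be technical. Members and lists were chosen with earlier results of these data known. Named are all 10 genes, up to 4 genes of a list with the smallest p in a comparison, and the 5 genes most like Cd207, Mgl2, Ccr7 and Epcam (mean of at least 1 CPM, prior count 2). Il4ra, Clec9a, Pax5, Bpifa2, Ddx3y, Il4i1, Relb, Il12b and Lyz2 were named after their values were seen. Some genes that the rule would name are not reported here. Shared 31-base words were counted in GENCODE M21 transcripts. Other settings were RLE scaling, DESeq2 1.42.0, no filter, only the groups compared, untreated libraries summed, a replicate block, the share of 1984 receptor genes as a covariate, thinning, and libraries left out. Figures were drawn with matplotlib 3.10.9.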

Additional observations from a re-analysis of the deposited data

Results flagged for a closer look

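In 3 of the 10 genes the change from fl/fl to cKO differed from that from isotype to MAR1 by a test of the difference itself (edgeR, cKO effect minus MAR1 effect). Of all genes 6.14% were called higher and 1.82% lower, or 2.09% and 2.23% with RLE scaling. The receptor gene share did not overlap within either pair of groups, so share and intervention cannot be told apart. Ccr7 differed by -6.47 on the log2 scale (adjusted p = 0.0459), with effects of -6.21 in cKO and 0.26 with MAR1. Irf8 differed by -3.26 (adjusted p = 0.0321), with effects of -2.42 and 0.85. Without fl/fl libraries 1 and 2, which held 2199 and 447 CPM of B cell markers, these differences were 0.34 and -0.65. Epcam differed by 2.11 (adjusted p = 0.0465), with effects of 1.63 and -0.48, and did not pass with DESeq2 (1.66, adjusted p = 0.0569). With 1 library left out the calls were kept in 3, 5 and 6 of 14 fits for Ccr7, Irf8 and Epcam. Without any 1 isotype library or MAR1 library 3, those fits called at most 0.00982% of all genes higher and 0% lower. The part of the lymphocyte markers in these differences was not tested.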

How the results depend on the processing

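Of the 10 genes 3, 1, 3, 4, 2 and 3 were called in isotype and fl/fl against untreated skin, MAR1 against isotype, cKO against fl/fl, fl/fl against isotype and the interaction. With 1 library left out in turn these counts ran from 1 to 3, 0 to 2, 1 to 4, 0 to 4, 0 to 5 and 0 to 4. Of all genes they called higher 0.240 to 4.04, 0.120 to 0.960, 13.6 to 24.2, 7.76 to 18.4, 0 to 3.04 and 0.00479 to 19.5%. Called lower were 0.154 to 2.28, 0.180 to 2.78, 20.5 to 27.5, 1.52 to 6.29, 0 to 12.2 and 0 to 3.88%. The 0 in cKO against fl/fl came without cKO library 3, where 7.76% of all genes were called higher and 1.71% lower. With the untreated libraries summed, 1 was called in isotype against untreated skin, where 0.101% of all genes were called higher and 0.129% lower. With the replicate number as a block the counts were 1, 0, 3, 3, 0 and 0. In the same order that fit called 0.621, 0.482, 19.9, 10.2, 0.153 and 2.15% of all genes higher. It called 0.587, 0.587, 25.8, 4.40, 0.683 and 0.411% lower. Over 26 same-number pairs the deviations had r from -0.33 to 0.34, with 3 pairs over 0.1. Deviations from a mean of 2 or 3 libraries are tied to each other, so these r cannot decide if the replicate numbers pair the samples. DESeq2 called 3 genes in fl/fl against untreated skin, 5 with MAR1 and 4 in fl/fl against isotype. Of all 35327 named genes, counted without the edgeR filter, it called 2.83, 20.7 and 3.67% higher and 3.19, 11.7 and 5.94% lower. The edgeR shares are of 20939 filtered genes, so the DESeq2 shares cannot be set beside them. With only the groups compared in the fit the counts were 0 in fl/fl against untreated skin, 5 with MAR1, 2 in cKO and 0 in fl/fl against isotype. Of all genes these fits called 0, 34.5, 7.39 and 1.02% higher and 0, 33.1, 0.88 and 1.70% lower. The receptor gene share as a covariate left 0 with MAR1, 0 in cKO and 0 in fl/fl against isotype. Of all 20939 genes it left 0, 2 and 41 called higher and 0, 12 and 22 lower. In fl/fl against isotype 1 was called with RLE scaling, 1 without a filter, 0 after thinning and 0 without the MAR1 libraries. The last setting was chosen after seeing the data. In the same order 1.13, 0.649, 0.0558 and 0.00519% of all genes were called higher, and 3.09, 2.58, 0.0725 and 0.0104% lower. Without fl/fl libraries 1 and 2 the count was 5 with MAR1, where 24.5% of all genes were called higher and 27.2% lower. Comparisons with fl/fl then rest on 1 fl/fl library, and no counts are given for them. The cause of these shifts was not tested.

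Without fl/fl libraries 1 and 2, direction turned in fl/fl against untreated skin for Flt3 (-5.05), Wdfy4 (-2.61) and H2-DMb2 (-3.41). In cKO against fl/fl it turned for Ccr7 (0.56), Irf8 (0.19), Cd209g (1.46), Ccl22 (0.79), Cd83 (2.36), Ikzf1 (0.44) and H2-DMa (1.15). In fl/fl against isotype it turned for Ccr7 (-1.55), Cd209g (-0.85), Cd209b (-0.032), Ccl22 (-0.95), Cd83 (-2.22), Spib (-0.75) and H2-DMa (-0.62), and in the interaction for Ccr7 (0.34) and Ciita (0.0209). With the receptor gene share as a covariate it turned with MAR1 for Flt3 (-0.52), Xcr1 (-0.78) and Cd209c (-0.39), and in cKO for Xcr1 (-2.13). Over the called values of the 10 genes, 259 kept direction and call in the other settings and left-out libraries, 112 lost the call and 7 turned. RLE scaling moved the median of all genes by 0.59 with MAR1, 0.12 in cKO and -0.46 in the interaction. Depth limits genes of low level: a MAR1 library holds as few as 5.73 M counts, and Clec9a had 9, 12 and 9 counts in the 3 MAR1 libraries.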
